A study of Mus musculus with 16 samples.

Results

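The matrix metalloproteinases MMP2, MMP3, MMP9, MMP11, MMP13 and MMP14 and the tissue inhibitors of metalloproteinases TIMP1, TIMP2 and TIMP3 were followed in ES/PA6 co-cultures and in PA6 mono-cultures by microarray. They were taken by name, as 9 of the 30854 gene names on the array, and their 17 probes were all those carrying these names. Of the 9 genes, 8 passed the detection filter, as did 14829 of all genes, and MMP13 did not. Total RNA of 16 cultures was measured at day 7 on a 1-colour mouse bead array, in which the brightness of a probe (its intensity, on a linear scale) follows the amount of its transcript.

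The co-cultures held mouse embryonic stem (ES) cells with an enhanced green fluorescent protein (EGFP) gene knocked in behind the τ promoter, grown on a monolayer of PA6 cells, and the mono-cultures held PA6, a mouse stromal line, on its own. All 16 cultures were kept in serum-free medium. Co-cultures without added factor (-GFs) gave 2 arrays, with FGF2 3 arrays and with BMP4 2 arrays, and PA6 mono-cultures gave 3 arrays in each of the same states. The labels give FGF2 at 20 ng/ml and BMP4 at 10 ng/ml for 3 days, although another label field names the whole 7 days and the study's methods give a lower BMP4 dose. Each array was 1 well of a biological replicate, and since nothing states that wells came from separate thaws or days, the p-values below measure the spread between these wells. The methods name 1 ES line and 1 stromal line, so the replicates are cultures and not independent lines.

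Matrix metalloproteinases are zinc enzymes that cut collagens, laminins and other parts of the extracellular matrix, and most are made as inactive precursors. TIMPs bind the active site of the enzymes and block it. MMP14 sits in the cell membrane, and there it holds a TIMP2 molecule that in turn captures the MMP2 precursor, which a neighbouring MMP14 then cuts to its active form, so that TIMP2 serves both as an inhibitor and as a part of the activation complex. In sprouting vessels these enzymes open the basement membrane for endothelial cells, and stromal cells are known as a main source of several of them.

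The arrays carried the marker genes that the culture labels call for. The summed normalized level of the stromal markers, all 12 of 12 tested, was 66860 to 87950 on the 7 co-culture arrays and 194800 to 266400 on the 9 PA6 arrays. Of the neural markers 6 of 10 passed the filter, with sums of 11050 to 32200 in co-cultures and 353.9 to 695.3 in PA6 alone. Of the pluripotency markers 8 of 9 passed, with sums of 10850 to 61370 in co-cultures and 1156 to 3923 in PA6 alone. Of the endothelial markers 5 of 9 passed, and CDH5, KDR, TIE1 and ICAM2 did not. The arrays detected 37.33 to 46.95% of all probes, and replicate arrays of a group correlated at 0.973 to 0.986.

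Upstream sequences were available for 7 of the 9 genes in RefSeq (GRCm38.p6), and Mmp2 and Mmp9 were not among them. Within the 250 bases before the annotated start, the AP-1 element TGANTCA, which is bound by FOS and JUN dimers and reads the same on both strands, was found in Mmp3 and Mmp13 alone, 2 of 7, against 6.75% of all 32851 windows of that length. The GC box GGGCGG, a binding sequence of SP1 searched on both strands, was found in the other 5, Mmp11, Mmp14, Timp1, Timp2 and Timp3, against 32.7% of all windows, and no match overlapped one of the other motif. A match is a run of letters and was not tested for binding. By the brightest probe of each, the 5 genes with a GC box were detected on all 16 arrays and Mmp3 on 10, while Mmp13 did not pass the filter. Mmp2 and Mmp9 have no sequence to set beside their levels, and a link between motif and level was not tested. The sequences are shown for Mmp14 and Timp2, which were lower in co-cultures, for Timp3, which was not, and for the 2 genes with the AP-1 element. They lie at chr14:54431348-54431597 on the + strand (Mmp14), chr11:118355412-118355661 on the - strand (Timp2), chr10:86300162-86300411 on the + strand (Timp3), chr9:7445572-7445821 on the + strand (Mmp3) and chr9:7272264-7272513 on the + strand (Mmp13). Each is written 5′ to 3′ in the direction of the gene and ends at the base before the start, with either motif in capitals.
Mmp14: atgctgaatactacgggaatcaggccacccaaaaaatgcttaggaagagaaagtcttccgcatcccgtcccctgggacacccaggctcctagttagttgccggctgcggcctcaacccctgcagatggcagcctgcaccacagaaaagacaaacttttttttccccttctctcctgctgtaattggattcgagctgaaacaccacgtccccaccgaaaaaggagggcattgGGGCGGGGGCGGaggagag
Timp2: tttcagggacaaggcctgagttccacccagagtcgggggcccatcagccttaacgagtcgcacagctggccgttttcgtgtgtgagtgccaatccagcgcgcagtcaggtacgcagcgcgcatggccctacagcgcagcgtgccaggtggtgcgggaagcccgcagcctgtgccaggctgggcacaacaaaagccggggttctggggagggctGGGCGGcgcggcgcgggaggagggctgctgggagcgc
Timp3: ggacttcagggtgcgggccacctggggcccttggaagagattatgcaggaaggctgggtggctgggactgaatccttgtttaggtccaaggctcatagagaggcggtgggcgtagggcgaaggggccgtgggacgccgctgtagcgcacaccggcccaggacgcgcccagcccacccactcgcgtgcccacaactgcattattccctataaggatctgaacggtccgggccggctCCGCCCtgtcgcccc
Mmp3: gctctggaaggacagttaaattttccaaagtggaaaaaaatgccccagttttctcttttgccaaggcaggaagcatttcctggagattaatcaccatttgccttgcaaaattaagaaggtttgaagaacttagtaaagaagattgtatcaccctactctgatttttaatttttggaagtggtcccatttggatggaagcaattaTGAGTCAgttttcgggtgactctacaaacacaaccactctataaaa
Mmp13: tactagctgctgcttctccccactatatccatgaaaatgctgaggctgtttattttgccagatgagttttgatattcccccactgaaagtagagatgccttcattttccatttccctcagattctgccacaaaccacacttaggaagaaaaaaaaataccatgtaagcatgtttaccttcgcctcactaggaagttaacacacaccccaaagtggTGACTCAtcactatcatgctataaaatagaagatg

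MMP2, MMP14 and TIMP2 were far brighter in PA6 mono-cultures than in co-cultures in each state. TIMP3, also well detected, showed no such difference. A gene was called changed where the log2 fold change, after background correction and quantile normalization, went beyond 1 in size and the adjusted p of limma was below 0.1. Without added factor, 6 of the 8 genes tested were called lower in the co-cultures and none higher, where 21.8% of all genes were called lower and 22.3% higher. With FGF2, 4 were called lower and none higher, against 22.9% lower and 23.4% higher of all genes. With BMP4, 5 were called lower and none higher, against 20.3% lower and 22% higher of all genes. The median log2 fold change of the 8 genes was -2.03 without factor, -1.58 with FGF2 and -1.31 with BMP4, and that of all genes tested was 0.032, -0.036 and 0.0077. The 3 comparisons use different arrays of each culture but share 1 fit over all 16 arrays. In bulk RNA a smaller share of stromal cells and less RNA per stromal cell cannot be told apart.

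**Figure D1:**
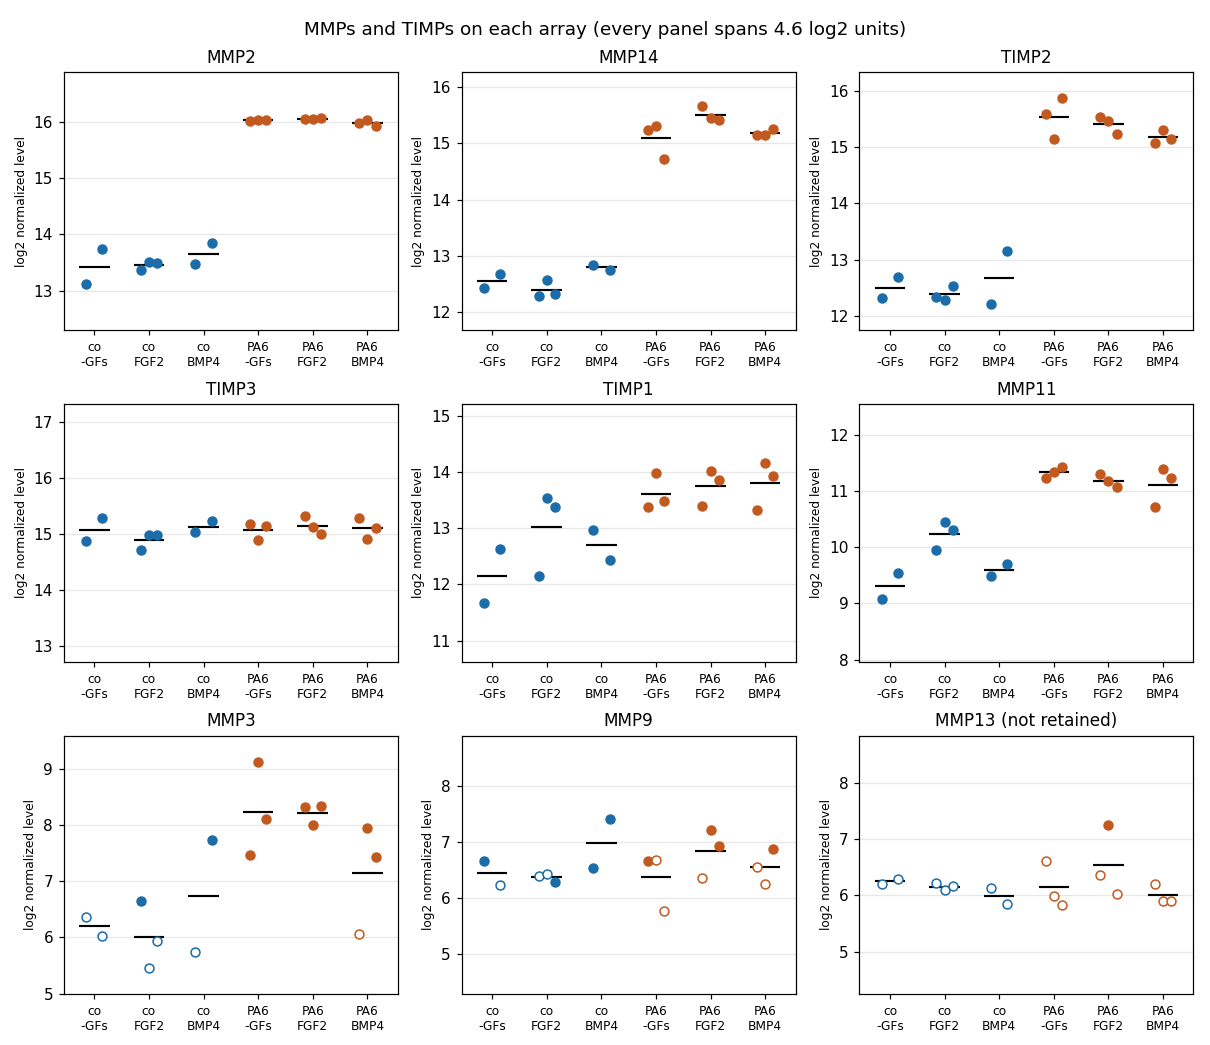
Log2 normalized level (y axis) of the brightest probe of each gene on each of the 16 arrays (points), by culture and factor (x axis), with blue for co-cultures, orange for PA6 mono-cultures, open points for arrays where the probe was not detected and bars for group means. MMP2, MMP14 and TIMP2 form separate bands in the 2 kinds of culture, TIMP3 lies in 1 band on all arrays, and MMP3, MMP9 and MMP13 lie at or near the limit of detection.

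MMP2, the gelatinase that cuts denatured collagen and basement membrane collagen, gave intensities of 8536.5 and 13397.1 in the co-cultures without factor, of 10711, 10713 and 11461.9 with FGF2 and of 10006.9 and 15092.5 with BMP4. The PA6 arrays gave 65786.9, 68156.7 and 69746.5 without factor, 64864.4, 69593.3 and 71438.8 with FGF2 and 62510.9, 67167.3 and 64606.1 with BMP4. No co-culture array came near any PA6 array. The log2 fold change of co-cultures over PA6 was -2.61 ± 0.17 (SE) without factor, a 6.09-fold difference with an adjusted p of 2.89e-08. It was -2.61 ± 0.15 with FGF2 (adjusted p = 6.59e-09) and -2.32 ± 0.17 with BMP4 (adjusted p = 1.07e-07). On the PA6 arrays this probe reached 91.8 to 99.4% of the brightest probe of the array, a range in which a scanner can lose linearity, and whether the fold is compressed was not tested.

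MMP14, the membrane enzyme that activates MMP2, gave intensities of 5319.6 and 6536.7 in the co-cultures without factor, 5353.4, 5692.6 and 5098.6 with FGF2 and 6503.1 and 6874.1 with BMP4. In PA6 it was 42403.2, 42002.1 and 30830.8 without factor, 46924, 43812.2 and 44228.4 with FGF2 and 36060.9, 35973.6 and 39259.6 with BMP4. The lowest PA6 array, the third without factor, was still above every co-culture array. Co-cultures over PA6 gave a log2 fold change of -2.54 ± 0.18 without factor (5.82-fold, adjusted p = 6.46e-08), -3.12 ± 0.16 with FGF2 (8.68-fold, adjusted p = 2.11e-09) and -2.39 ± 0.18 with BMP4 (5.24-fold, adjusted p = 1.40e-07). The other MMP14 probe was detected on 0 of 16 arrays, at intensities of 144.7 to 217.9, and carries no information on the gene.

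TIMP2, the inhibitor that is also part of the MMP14 complex, gave 4960.3 and 6622.4 in the co-cultures without factor, 5586.6, 4659 and 5881.4 with FGF2 and 4223 and 9041 with BMP4. In PA6 alone the values were 51768.4, 38046 and 63532.4 without factor, 42639.6, 44691.3 and 39947.5 with FGF2 and 34268.9, 39604.6 and 36483.7 with BMP4. The 2 BMP4 co-cultures differed from each other more than the replicates of any other co-culture group and still lay below all PA6 arrays. On PA6 -GFs replicate 3 the TIMP2 probe gave 63532.4, where the brightest probe of that array gave 71605. Whether the TIMP2 fold is compressed was not tested. For TIMP2 the log2 fold change was -3.04 ± 0.26 without factor (8.21-fold, adjusted p = 3.13e-07), -3.03 ± 0.23 with FGF2 (8.15-fold, adjusted p = 8.06e-08) and -2.49 ± 0.26 with BMP4 (5.63-fold, adjusted p = 2.33e-06). All 3 genes of the activation complex were thus called lower in co-cultures in each of the 3 states.

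The stromal markers were lower in co-cultures along with these genes. Of the 12 stromal markers 10 were called lower in the co-cultures without factor, 10 with FGF2 and 9 with BMP4. Of all genes 21.8, 22.9 and 20.3% were called lower in these states. The median log2 fold changes of the markers were -2.55, -2.15 and -1.53. PDGFRB, the receptor that marks mesenchymal cells, had a log2 fold change of -3.49 without factor (adjusted p = 1.01e-06), and CXCL12, a chemokine of stromal cells, one of -3.39 (adjusted p = 3.12e-08). The markers not called without factor, named after their values were seen, were DCN at -0.49 and LUM at -0.68. On the PA6 arrays without factor the log2 levels of CXCL12 (15.83 to 16.04) and DCN (15.57 to 16.08) lay near the top of the scale. Whether their folds are compressed was not tested. The mean over all DCN probes gave -2.62, and LUM ran from -0.15 (adjusted p = 0.789) without co-culture -GFs replicate 1 to -1.21 (adjusted p = 0.0209) without replicate 2. With BMP4 the LUM value was 0.86 (adjusted p = 0.0524), above 0. The part of the stromal share in the changes of MMP2, MMP14 and TIMP2 was not tested.

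TIMP3, which stays bound to the matrix after secretion, was as bright in co-cultures as in PA6 alone. Its intensities were 27992.8 and 39736.9 in the co-cultures without factor, 26502.2, 30248 and 34576.7 with FGF2 and 31100.3 and 39784.3 with BMP4. The PA6 arrays gave 40534.2, 32003.4 and 41061 without factor, 38489.2, 35858.4 and 33436.7 with FGF2 and 39315.1, 30725.1 and 35427 with BMP4. The cultures overlapped without factor and with BMP4, and with FGF2 every PA6 value lay just above the co-cultures after normalization. The log2 fold change was 0.0089 ± 0.18 without factor (95% confidence interval -0.38 to 0.40), -0.25 ± 0.16 with FGF2 (-0.59 to 0.10) and 0.025 ± 0.18 with BMP4 (-0.36 to 0.41), with adjusted p of 0.970, 0.192 and 0.913. The intervals leave room for a change of up to about 0.59 on this scale and none as large as the 2-fold limit.

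The remaining TIMP3 probes were not lower in co-cultures without factor either. The probe of middle brightness had a mean log2 level of 10.92 ± 0.53 (SD, n = 2) in co-cultures and 10.92 ± 0.33 (SD, n = 3) in PA6 without factor, and it was detected on all 16 arrays. The dimmest TIMP3 probe, detected on 14 arrays at intensities of 207.1 to 372.7, had 7.51 ± 0.35 (SD, n = 2) in co-cultures and 6.95 ± 0.39 (SD, n = 3) in PA6. Across the 3 states pooled, the change of TIMP3 exceeded that of MMP2 by 2.43, that of MMP14 by 2.62 and that of TIMP2 by 2.78 on the log2 scale. These pairs were set side by side after the values had been seen, so the differences are a description without a test. The one with MMP2 rests on a probe near the top of the scale, and TIMP2 came close to it on PA6 -GFs replicate 3.

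TIMP1, an inhibitor that cytokines induce in many cells, was called lower in the co-cultures without factor and with BMP4 and varied most among the bright genes. It gave 3251.5 and 6351.4 in the co-cultures without factor, 4918.6, 10888.6 and 10685.6 with FGF2 and 7067.2 and 5517.4 with BMP4. On the PA6 arrays it gave 11882.1, 17004 and 13108.4 without factor, 10567.9, 16233.1 and 14956.8 with FGF2 and 11304.3, 17986.9 and 16303.1 with BMP4. With FGF2 the co-cultures overlapped the PA6 arrays, and in the other states they lay below them. The log2 fold change was -1.46 ± 0.42 without factor (adjusted p = 0.00734), -0.74 ± 0.37 with FGF2 (adjusted p = 0.0939, under the fold limit) and -1.10 ± 0.42 with BMP4 (adjusted p = 0.0334).

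The TIMP1 calls rested on single arrays. Without the first co-culture array in the -GFs state the log2 fold change was -0.98 (adjusted p = 0.117). In the BMP4 state the TIMP1 value was -0.83 (adjusted p = 0.207) without co-culture replicate 2 and -0.92 (adjusted p = 0.0998) without PA6 replicate 2. Under median scaling the FGF2 state was also called for TIMP1 (-1.11, adjusted p = 0.0183). The other TIMP1 probe gave means of 12.04 ± 0.61 (SD, n = 2) in co-cultures and 13.53 ± 0.29 (SD, n = 3) in PA6 without factor, in the same order as the main probe.

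MMP11, an enzyme known from stroma around invading or remodelling epithelia, gave 708.5 and 879.2 in the co-cultures without factor, 1292.5, 1495.7 and 1379.5 with FGF2 and 815 and 956.3 with BMP4. The PA6 arrays gave 2770.1, 2827.9 and 3377.5 without factor, 2634.9, 2349 and 2195.3 with FGF2 and 2000.7, 2784.2 and 2538.2 with BMP4. The co-cultures lay below PA6 in each state, and among the co-cultures the 3 with FGF2 were the brightest. The log2 fold change over PA6 was -2.03 ± 0.21 without factor (4.09-fold, adjusted p = 2.09e-06) and -1.52 ± 0.21 with BMP4 (2.86-fold, adjusted p = 3.56e-05). With FGF2 it was -0.95 ± 0.19 (adjusted p = 5.58e-04), just inside the fold limit. That last value went past the limit under median scaling (-1.24), without co-culture FGF2 replicate 2 (-1.06) and without PA6 FGF2 replicate 3 (-1.01).

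**Figure D2:**
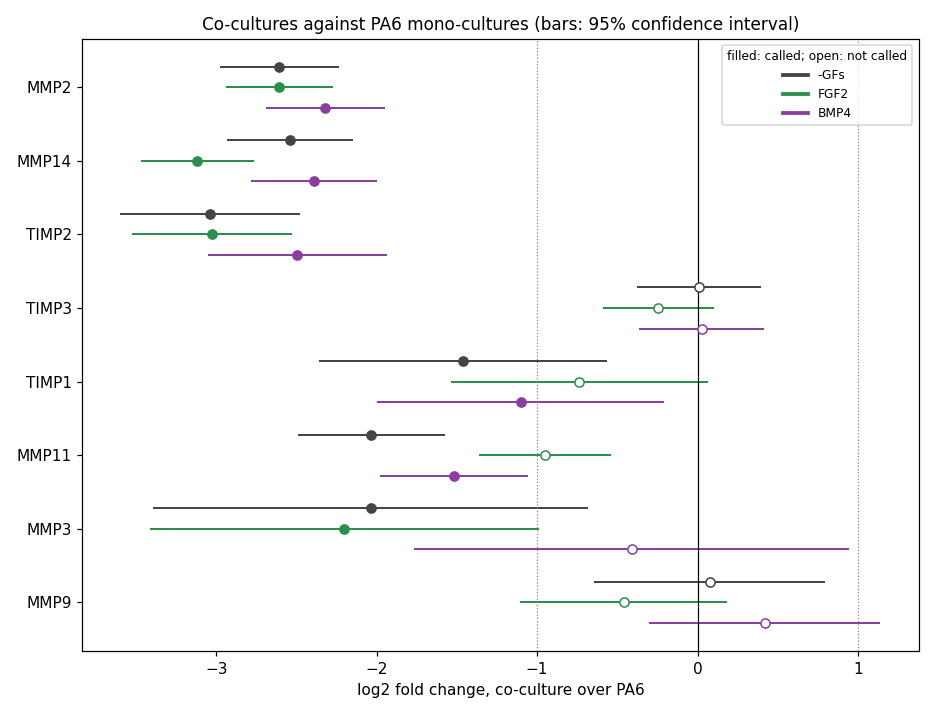
Log2 fold change (x axis) of co-cultures over PA6 mono-cultures for the 8 genes tested (y axis) without factor, with FGF2 and with BMP4, with 95% confidence intervals as bars, filled points for called genes and dotted lines at the 2-fold limit. MMP2, MMP14 and TIMP2 lie between -3.12 and -2.32 in all states, and all 3 TIMP3 intervals include 0.

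MMP3, the stromelysin that cuts many matrix proteins and activates other precursors, lay near the detection limit. Its main probe gave 239.4 and 192.4 in the co-cultures without factor, 295.8, 123.7 and 183.4 with FGF2 and 158.2 and 360.1 with BMP4. The PA6 arrays gave 303, 688.3 and 428 without factor, 440.5, 363.1 and 396.8 with FGF2 and 209.5, 386.3 and 273.2 with BMP4. It was detected on 2 of 7 co-culture arrays and 8 of 9 PA6 arrays, and its replicates differed most in the BMP4 co-cultures.

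Without factor, where neither co-culture array detected it, MMP3 was at least 3.25-fold lower in co-cultures by point estimate. That sets the PA6 mean over the co-culture levels, each raised to the lowest level of any detected probe where it lay below. The fitted log2 fold change was -2.04 ± 0.63 (95% confidence interval -3.39 to -0.68, adjusted p = 0.012). A fold given as at least some value, here and below, is such an estimate and not a confidence limit. The fitted MMP3 value was -1.59 (adjusted p = 0.0496) without PA6 replicate 2, the brightest array, and -1.07 (adjusted p = 0.0283) without background correction. With FGF2 the fitted log2 fold change of MMP3 was -2.20 ± 0.56 (adjusted p = 0.00333), and it was -1.24 without background correction. Only 1 of 3 co-culture arrays detected the probe there, so the size of this value rests on levels near background. With BMP4 it was -0.41 ± 0.63 (adjusted p = 0.593, 95% confidence interval -1.77 to 0.95) and the cultures overlapped. The other MMP3 probes differed from each other in that state. One was detected on both BMP4 co-cultures, with a mean log2 level of 7.32 ± 0.16 (SD, n = 2) against 6.76 ± 0.84 (SD, n = 3) in PA6, and the other on 1 of 2, with intensities of 168.6 and 264.2 against 197 to 362.3 in PA6. Without factor both were detected on 0 of 2 co-cultures and on 3 of 3 PA6 arrays, as was the main probe. The adipocyte markers, of which 5 of 7 passed the filter, also varied widely between BMP4 replicates, with sums of 3106 to 19420 in co-cultures and 14950 to 162600 in PA6, and their part in MMP3 was not tested.

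MMP9, the other gelatinase, was detected on 4 of 7 co-culture and 4 of 9 PA6 arrays at intensities of 152.1 to 314.9, and no difference was detectable at this signal. Its log2 fold change over PA6 was 0.075 ± 0.33 without factor, -0.46 ± 0.30 with FGF2 and 0.42 ± 0.33 with BMP4, with adjusted p of 0.859, 0.188 and 0.296. MMP13, a collagenase of cartilage and bone, was detected by 1 of its probes on 1 PA6 array without factor, by another on 1 PA6 array with FGF2 and by the remaining one on 0 arrays. Its intensities were 106.6 to 283 over all probes and arrays, and it was not tested. Of 8 markers of osteoblasts and hypertrophic cartilage, 6 were on the array and 1, SPP1, passed the filter. SPP1, the matrix protein osteopontin, rose in co-cultures by 2.90 with FGF2 (adjusted p = 0.00451) and by 1.58 with BMP4 (adjusted p = 0.0342) on the log2 scale. In PA6 alone SPP1 had a value of 2.70 with FGF2 (adjusted p = 0.127) with no overlap between groups, and the FGF2 effect differed between cultures by 0.20 (adjusted p = 0.871). The SPP1 call with BMP4 was lost without either -GFs co-culture (adjusted p = 0.139 and 0.102) and without BMP4 replicate 1 (adjusted p = 0.152).

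By the call rule none of the 8 genes was called with either factor, in co-cultures or in PA6. With 8 genes and the shares of all genes given here, 0 calls say little about these genes in particular. In PA6 the MMP2 probe lay near the top of the scale, where a rise may not show. In co-cultures, FGF2 gave 0 calls by limma (1 gene at an unadjusted p below 0.05) where 7.42% of all genes were called, and BMP4 gave 0 (0 genes at that level) where 3.75% were called. BMP4 against FGF2 in co-cultures gave 0 calls (1 gene at that level) where 1.44% of all genes were called. In PA6, FGF2 gave 0 (1 gene at that level) where 0.027% of all genes were called, and BMP4 gave 0 (0 genes at that level) where 0% were called. The factor comparisons within a culture share the -GFs arrays as control. With median scaling in place of quantile normalization MMP3 was called in co-cultures with BMP4 over no factor (1.49, adjusted p = 0.0315) and over FGF2 (1.23, adjusted p = 0.0937).

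MMP11 had the largest log2 fold change with FGF2 among the 8 genes in co-cultures. Its log2 level was 9.07 and 9.53 without factor and 9.96, 10.44 and 10.30 with FGF2, so that the groups did not overlap. The log2 fold change was 0.93 ± 0.23 (95% confidence interval 0.39 to 1.47, adjusted p = 0.0607), past the adjusted p and short of the fold limit. Without co-culture FGF2 replicate 1 the MMP11 value was 1.07 (adjusted p = 0.0619) and was called. In PA6 alone the change of MMP11 with FGF2 was -0.15 ± 0.18 (adjusted p = 0.787).

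The difference between these responses was the single call among the interactions. The FGF2 effect on MMP11 was larger in co-cultures than in PA6 by 1.08 ± 0.29 on the log2 scale (95% confidence interval 0.46 to 1.70, adjusted p = 0.0396), where 7.9% of all genes were called. The MMP11 call was lost under 4 of the alternatives tried, among them without co-culture -GFs replicate 1 (0.85, adjusted p = 0.163) and without co-culture FGF2 replicate 2 (0.98, adjusted p = 0.0873). The BMP4 effect on MMP11 differed by 0.52 ± 0.30 (adjusted p = 0.454). Of the 8 genes 0 were called in the BMP4 interaction (0 at an unadjusted p below 0.05), where 4.23% of all genes were called.

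TIMP1 did not pass the test with either factor, with a log2 fold change of 0.87 ± 0.48 with FGF2 (95% confidence interval -0.26 to 1.99, adjusted p = 0.338) and 0.55 ± 0.52 with BMP4 (-0.68 to 1.78, adjusted p = 0.733) in co-cultures. The log2 fold changes of MMP2, MMP14, TIMP2 and TIMP3 with FGF2 in co-cultures were 0.031, -0.16, -0.12 and -0.18. Their widest interval, for TIMP2, ran from -0.81 to 0.58, so a 2-fold change of these 4 genes lay outside their intervals. With BMP4 in co-cultures their values were 0.23, 0.25, 0.18 and 0.050, and the widest interval, again for TIMP2, ran from -0.58 to 0.93. All 8 fitted values with BMP4 in co-cultures were above 0, with a median of 0.27 where that of all genes was -0.0015, and the 8 values share the same 4 arrays. Of the 12 stromal markers 10 were above 0 in the same comparison, with a median of 0.23, and their part in it was not tested. Leaving out 1 array put 4 of the 8 below 0, with the lowest values of MMP2 at -0.080, MMP3 at -0.45, TIMP2 at -0.29 and TIMP3 at -0.15. Only MMP14 had groups that did not overlap there, with an adjusted p of 0.666.

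In PA6 mono-cultures, MMP14 was the single gene of the 8 with an unadjusted p below 0.05 with FGF2. Its log2 levels were 15.25, 15.31 and 14.71 without factor and 15.66, 15.45 and 15.41 with FGF2, without overlap. This MMP14 change was 0.42 ± 0.17 (95% confidence interval 0.031 to 0.81, adjusted p = 0.452). TIMP2 had a value of -0.37 ± 0.19 with BMP4 (adjusted p = 0.594), with overlapping arrays, and MMP3 one of -1.08 ± 0.51 (adjusted p = 0.568). None of these passed the adjusted threshold, and the MMP3 interval, from -2.25 to 0.083, included a 2-fold change.

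**Figure D3:**
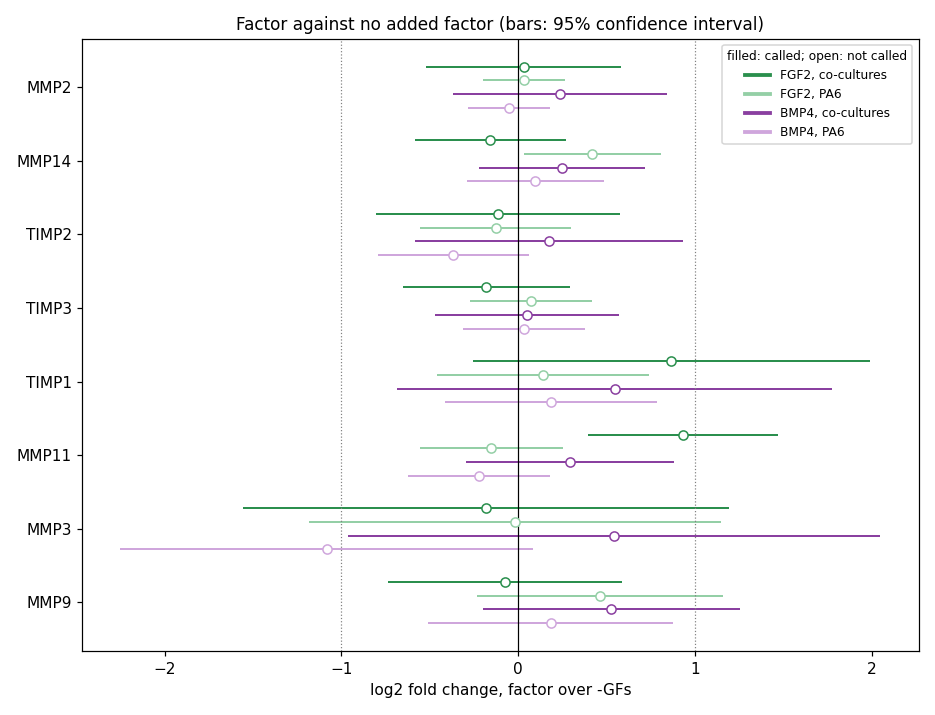
Log2 fold change (x axis) with FGF2 or BMP4 over no added factor for the 8 genes tested (y axis), in co-cultures (dark) and PA6 mono-cultures (light), with 95% confidence intervals as bars, open points for genes not called and dotted lines at the 2-fold limit. No point is filled, and the MMP11 value with FGF2 in co-cultures, 0.93, is the one farthest from 0 relative to its interval. In PA6 the MMP2 probe lay near the top of the intensity scale, where a rise may not show.

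Several other members of the protease family were higher in co-cultures. Of the 17 further MMPs and TIMP4 on the array 7 genes passed the filter, and without factor 4 were called higher and 1 lower in co-cultures. With FGF2 it was 3 higher and 1 lower, and with BMP4 again 3 higher and 1 lower. Of all genes 22.3, 23.4 and 22% were called higher in the 3 states and 21.8, 22.9 and 20.3% lower. The list medians were 1.59, 0.73 and 0.14. MMP15, a membrane enzyme related to MMP14, was at least 4.52-fold higher in co-cultures without factor, since 0 of 3 PA6 arrays there detected it (adjusted p = 2.89e-04). Its co-culture intensities were 522.7 and 756.3 and its PA6 intensities 161.3 to 198.6.

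MMP17, a further membrane enzyme, had a log2 fold change of 1.64 without factor (adjusted p = 0.0101), 2.48 with FGF2 (adjusted p = 2.00e-04) and 1.58 with BMP4 (adjusted p = 0.0128). The last MMP17 value was 1.26 (adjusted p = 0.115) without co-culture BMP4 replicate 1. MMP16, also bound to the membrane, was at least 1.53-fold higher with BMP4 (fitted log2 value 1.51, adjusted p = 1.13e-04), and its brightest probe was detected on 0 of 9 PA6 arrays. MMP24 was called lower in each state, at -2.13, -2.63 and -2.12, but its probes disagreed. The bright MMP24 probe had a mean log2 level of 11.04 in co-cultures and 13.16 in PA6 without factor, and a dimmer one 9.60 in co-cultures and 7.25 in PA6. With the mean over its probes MMP24 had 0.72 without factor, 0.0028 with FGF2 and -0.42 with BMP4, none of them called.

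TIMP4, the inhibitor with the narrowest tissue range, was detected on both co-culture arrays without factor and all 3 with FGF2, and on 0 of 2 with BMP4 and 0 of 9 PA6 arrays. Over PA6 it was higher in co-cultures by a factor of at least 1.45 in the absence of factors (adjusted p = 1.63e-04), and by at least 1.68 where FGF2 had been added (adjusted p = 6.12e-06). In co-cultures TIMP4 was at least 2.31-fold lower with BMP4 than with FGF2 (fitted log2 value -1.69 ± 0.33, adjusted p = 0.0963). Leaving out any 1 of the 7 co-culture arrays ended this last TIMP4 call, at adjusted p of 0.109 to 0.423.

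**Figure D4:**
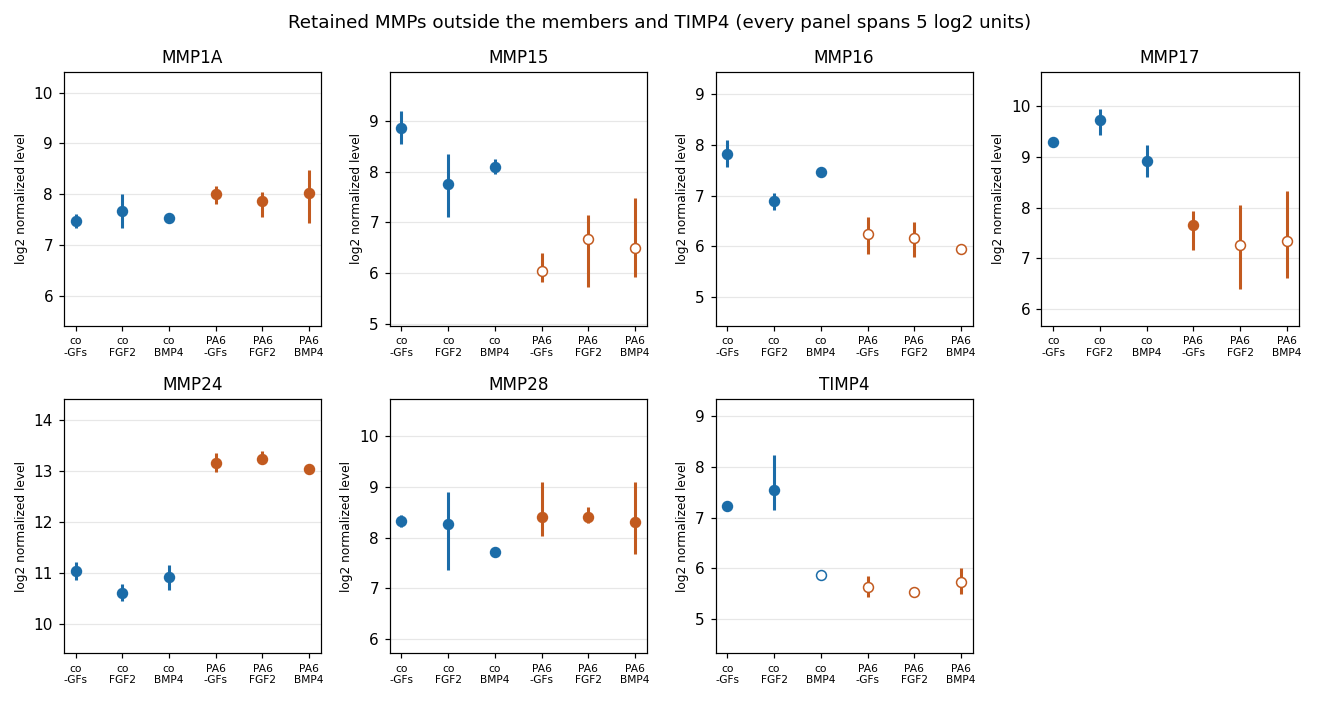
Mean log2 normalized level (points, y axis) with the lowest and highest array (bars) by culture and factor (x axis) for the 6 further MMPs and TIMP4 that passed the filter, with blue for co-cultures, orange for PA6 mono-cultures and open points where not every array of the group detected the probe. MMP15, MMP16, MMP17 and TIMP4 are higher in co-cultures without factor, MMP24 is lower, and TIMP4 was not detected with BMP4 in either culture.

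Most of the related proteases and regulators that passed the filter were also called lower in co-cultures. Of the ADAMTS proteases, secreted relatives that cut proteoglycans and procollagens, 10 of 19 passed the filter. In each state 6 were called lower and 1 higher. The shares of all genes were 21.8, 22.9 and 20.3% lower and 22.3, 23.4 and 22% higher without factor, with FGF2 and with BMP4. ADAMTS2, which trims procollagen, had a log2 fold change of -3.91 without factor (adjusted p = 4.02e-08) and ADAMTS9 one of -3.57 (adjusted p = 1.24e-06). The gene called higher was ADAMTS19, by at least 2.25-fold without factor (adjusted p = 1.13e-05), where 0 of 3 PA6 arrays detected it. With FGF2 in co-cultures ADAMTS19 fell by 1.09 (adjusted p = 0.0501), and it was higher with BMP4 than with FGF2 by 1.80 (adjusted p = 0.0444). Both ADAMTS19 calls were lost without co-culture FGF2 replicate 1 (adjusted p = 0.111 and 0.117) or replicate 3 (0.109 and 0.117), the first also without either -GFs co-culture (0.24 and 0.109) and the second without either BMP4 co-culture (0.122 and 0.239).

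Of the activators and other inhibitors of MMPs 11 of 16 passed the filter. In co-cultures 8 were called lower without factor, 8 with FGF2 and 7 with BMP4, with none called higher. The shares of all genes called lower were 21.8, 22.9 and 20.3%. BSG, the membrane glycoprotein known to induce MMPs in fibroblasts, was at least 10.7-fold lower without factor (adjusted p = 2.98e-08), where 0 of 2 co-culture arrays detected its probe. THBS2, which carries MMP2 to its uptake receptor, had a log2 fold change of -3.34 without factor (adjusted p = 2.05e-08). PLAU, the urokinase that starts the plasmin cascade, had a value of -3.46 with FGF2 (adjusted p = 6.20e-05). Neither factor gave a call in this list in co-cultures or in PA6.

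Of the AP-1 and ETS factors and RUNX2, which bind MMP promoters, 10 of 13 passed the filter, and RUNX2 did not. Without factor 6 were called lower and 2 higher, where 21.8% of all genes were called lower and 22.3% higher. FOSB, a partner of JUN proteins, had a log2 fold change of -3.22 (adjusted p = 4.94e-06) and ETS1 one of -2.78 (adjusted p = 2.12e-08), while ETV5 had 2.57 (adjusted p = 5.25e-05). ETV4 was at least 4.65-fold higher (adjusted p = 4.05e-05), with 0 of 3 PA6 arrays detecting it. In co-cultures ETV5 rose by 1.80 with FGF2 (adjusted p = 0.0428). FOS rose by 1.05 with FGF2 (adjusted p = 0.0469) and by 1.23 with BMP4 (adjusted p = 0.0682), and ETS1 by 1.01 with BMP4 (adjusted p = 0.0905). These calls rested on single arrays: that of ETS1 was lost without any 1 of the 7 co-culture arrays (adjusted p up to 0.333), and those of FOS were lost without -GFs replicate 2 (adjusted p = 0.216 with FGF2 and 0.231 with BMP4), among others. The ETV5 value was 1.76 (adjusted p = 0.185) without -GFs replicate 1, 1.83 (adjusted p = 0.153) without -GFs replicate 2 and 1.75 (adjusted p = 0.111) without FGF2 replicate 2.

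**Figure D5:**
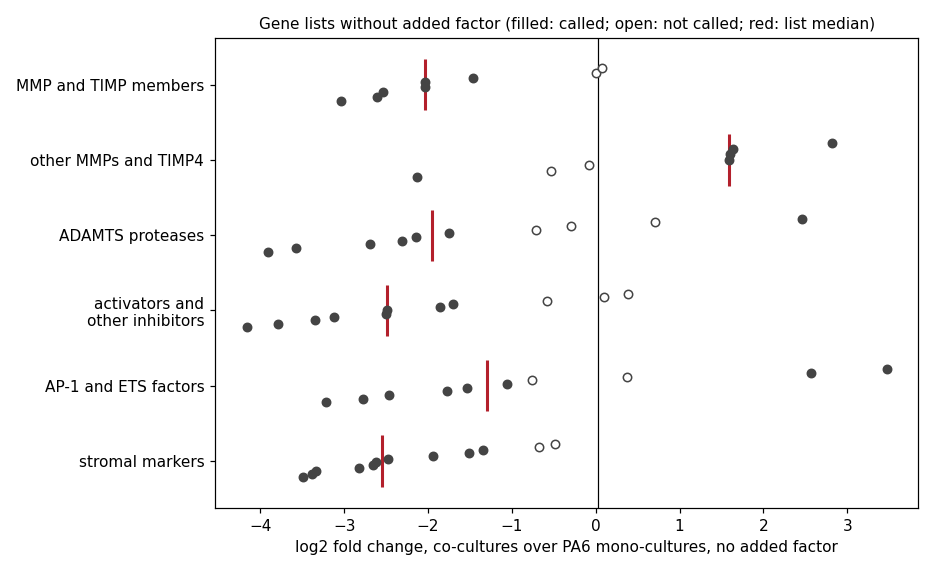
Log2 fold change (x axis) of co-cultures over PA6 mono-cultures without added factor for each gene tested (points) of 6 lists (y axis), with filled points for called genes, red bars for list medians and a black line at the median of all genes tested, 0.032. The 8 chosen genes that were tested, the ADAMTS proteases, the activators and the stromal markers have medians between -2.55 and -1.95. The AP-1 and ETS factors have one of -1.29 and the other MMPs with TIMP4 one of 1.59.

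Cells other than the stroma are also known to make these enzymes, macrophages among them, and the marker sums of several cell types differed between the co-culture groups. Of the macrophage markers 4 of 12 passed the filter, and CSF1R, PTPRC and ITGAM did not. LAPTM5 was the single gene of that list called with FGF2, at 4.11 (adjusted p = 0.012), while CD68 had 0.83, CD14 -0.56 and LYZ -0.51, with a list median of 0.16. The sums of the list were 3448 to 6640 on the FGF2 arrays, 533 to 738.3 on those without factor and 2473 to 3634 in PA6. The pluripotency sums were 10850 to 11080 without factor, 51670 to 61370 with FGF2 and 20800 to 36950 with BMP4. Of the 8 pluripotency genes tested 7 were called higher with FGF2 and 4 with BMP4, where 5.07 and 2.28% of all genes were. Of the 6 neural markers tested 3 were called lower with each factor, where 2.35% of all genes were with FGF2 and 1.47% with BMP4. The neural sums were 19700 to 32200 without factor, 15290 to 18030 with FGF2 and 11050 to 11590 with BMP4. The epidermal markers, 6 of 6 tested, had sums of 18480 to 32610 with BMP4 and 2080 to 2529 without. Endothelial marker sums were 545.5 to 658.3 without factor, 2200 to 3925 with FGF2 and 1831 to 2808 with BMP4. The part of these cells in the values of MMP9, MMP11 and TIMP1 was not tested.

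The genes whose pattern over the 16 arrays was closest to each gene were found by the root mean square difference after each gene's own mean was subtracted. CD47 (0.126) and CYB5 (0.145) were closest to MMP2, ABHD14B (0.162) and OTOP3 (0.189) to MMP14 and ATP2C1 (0.130) and BC014795 (0.190) to TIMP2. SLC6A8 (0.128) and TRMT2B (0.193) were closest to MMP11, and ARID5B (0.249) and RNASEK (0.294) to TIMP1. For MMP3 the closest were D230007K08RIK (0.472) and XPNPEP2 (0.556). The group means of TIMP3 spanned 0.25 and those of MMP9 0.60 on the log2 scale, too little for such a comparison.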

How the data were processed

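Total RNA of 16 cultures was hybridised to MouseWG-6 v2.0 BeadChips. The deposited table holds non-normalized probe intensity and a detection p-value for each of 45281 probes, made by the authors with GenomeStudio 2011.01 (submitters' processing notes), and the authors' cubic spline values were not used here. Columns were matched to cultures by their abbreviated names. Intensities were background corrected with the detection p-values, offset by 16, quantile normalized and put on a log2 scale (neqc, limma 3.58.1, R 4.3.3). A probe was retained where its detection p was below 0.05 on every array of at least 1 group, and each gene was represented by its brightest retained probe, which left 20880 probes and 14829 genes.

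Group means were compared with limma, within each culture (7 or 9 arrays) or over all 16 arrays for comparisons between cultures and interactions, with Benjamini-Hochberg adjustment over all genes tested. The study's thresholds (adjusted p of 0.1, log2 fold change of 1) defined a call, and the fits were tested on simulated data. The genes and lists were chosen with earlier results of these data known. Named were all 9 genes and, from the other lists, at most the 4 called genes of largest change per comparison whose groups did not overlap. Alternatives were the background correction, scaling, detection filter, threshold, probe averaging, blocks, arrays in the fit and leaving out each array. The number of arrays limits the precision. Figures used matplotlib 3.10.9 and promoter motifs Python 3.11.15.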

Additional observations from a re-analysis of the deposited data

Results flagged for a closer look

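The response of MMP11 to FGF2 differed between the 2 kinds of culture by a test of the difference itself. The FGF2 effect in co-cultures minus that in PA6 mono-cultures was 1.08 on the log2 scale for MMP11 (limma, adjusted p = 0.0396). All 3 co-cultures with FGF2 lay above both co-cultures without factor, and in PA6 the arrays overlapped. The call was lost without background correction (MMP11 value 0.94, adjusted p = 0.0362, under the fold limit), under median scaling (0.98, adjusted p = 0.288), without co-culture -GFs replicate 1 (0.85, adjusted p = 0.163) and without co-culture FGF2 replicate 2 (0.98, adjusted p = 0.0873). Over all alternatives, left-out arrays included, the adjusted p of the MMP11 difference ran from 0.0219 to 0.288.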

How the results depend on the processing

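Of 1612 values of the 8 genes under the alternatives, 1597 kept their side of the thresholds, 7 lost a call, 8 gained one and 0 reversed a call. Among the values uncalled in both settings 73 changed sign. The MMP2, MMP14 and TIMP2 calls between cultures held in every alternative run. Of 742 values of genes named from the other lists, 662 kept their side, 76 lost a call with the sign kept and 2 gained one. The last 2 lost a call with a change of sign. Both were MMP24 with the mean over its probes (0.72 without factor and 0.0028 with FGF2), and neither was called. Under median scaling 1 gene, MMP3, was called with BMP4 over no factor in co-cultures (1.49, adjusted p = 0.0315), with BMP4 over FGF2 (1.23, adjusted p = 0.0937) and in the BMP4 interaction (2.68, adjusted p = 0.0831), 1 call in place of 0 each time, and the FGF2 interaction had 0 calls in place of 1. In the same setting TIMP1 was called between cultures with FGF2 (-1.11, adjusted p = 0.0183). Median scaling put the median change of all genes at -0.21, 0.29 and 0.24 in the FGF2, the BMP4 against FGF2 and the BMP4 interaction comparisons, and the cause of the calls was not tested. Without background correction the FGF2 interaction also had 0 calls. With each array left out in turn, the calls numbered 0 to 1 for FGF2 in co-cultures and 0 to 1 for the FGF2 interaction, and where a group was left with 1 array it was assumed to vary like the others. Replicate numbers did not pair the co-culture arrays by the criterion used, since same-numbered arrays correlated at -0.199 to 0.283 there. In PA6 the same-numbered arrays correlated at 0.0697 to 0.199 and all other pairs at -0.136 to -0.0122. By the run of columns in the table, co-culture arrays of the same run correlated at 0.0976 to 0.283 and the others at -0.283 to 0.0976. The main fits do not use this pairing. With a replicate block the members called between cultures were 6, 4 and 5, and the FGF2 interaction kept 1, as without it. Over all genes that block gave 258 calls in place of 556 for BMP4 in co-cultures, 11 in place of 214 for BMP4 against FGF2 and 23 in place of 4 for FGF2 in PA6. A block on the run of columns in the table, chosen after seeing the data, also gave 6, 4, 5 and 1 members. Over all genes the run block gave 596 calls for BMP4 in co-cultures, 560 for BMP4 against FGF2 and 23 for FGF2 in PA6. Over all alternatives the number of all genes called ranged from 324 to 1271 for FGF2 and 32 to 870 for BMP4 in co-cultures, 2 to 574 for BMP4 against FGF2, 0 to 32 for FGF2 and 0 to 6 for BMP4 in PA6, 3480 to 6746, 3575 to 7042 and 3236 to 6484 between cultures without factor, with FGF2 and with BMP4, and 451 to 1317 and 106 to 713 for the FGF2 and BMP4 interactions. Most of the lowest come from requiring detection on all 16 arrays, which leaves fewer genes. Signal near background limits MMP3, MMP9 and MMP13.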
